A study of Homo sapiens with 9 samples.

Results

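The genes described here are 60 genes of mitosis, the stage at which a cell pulls its duplicated chromosomes apart and then divides: regulators of mitotic entry, spindle, checkpoint, kinetochore, cohesion, condensin and cytokinesis genes, and a few widely used proliferation markers. They were chosen by gene name from the 32378 genes of a table of read counts, and all 60 were found. The 9 RNA-seq libraries come from SKOV3, an epithelial ovarian cancer line long established in culture. There were 3 libraries each of control cells, of cells labelled Carbo and of cells labelled Carbo+COM33. Carbo stands for carboplatin by the series title, a DNA-crosslinking platinum drug. COM33 is a code name, and nothing more is said of the compound. By its design text, the study asked how COM33 may raise the sensitivity of these cells to carboplatin. The labels give no dose, no time and no COM33 group without Carbo, and they do not say whether the numbered libraries are separate cultures. The p-values below therefore measure only the spread between these libraries, which may be technical.

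Cells enter mitosis when cyclin B switches on the kinase CDK1. Spindle microtubules then attach to kinetochores, the protein platforms built on centromeres, and the spindle checkpoint holds back the anaphase-promoting complex, a ubiquitin ligase, until every chromosome is attached. Once released, that complex marks securin and the cyclins for destruction, which frees separase to cut cohesin, and cytokinesis follows. Most of these genes are transcribed mainly in G2 and mitosis. Their promoters are known for CHR elements, which bind MuvB complexes carrying B-MYB and FOXM1 in cycling cells and the DREAM repressor in resting cells, and for CCAAT boxes, which bind NF-Y.

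These promoter elements were looked for in RefSeq promoter windows (build GRCh38.p14) from 250 bases before to 50 bases after the start of each gene. The windows printed here run from 150 bases before to 10 bases after the start, 5′ to 3′ in the direction of the gene, with matches to the CHR-type motif (TTTGAA) and the CCAAT box (CCAAT) on either strand in capitals. PLK1, CCNB2 and CDC20 are shown as well-known mitotic genes, ESPL1 and CDCA3 because they were called lower with COM33, ASPM because its level with Carbo+COM33 stood furthest above control, and CENPU because it had the largest fold change in 2 of the comparisons.
PLK1, chr16:23678739-23678898, plus strand: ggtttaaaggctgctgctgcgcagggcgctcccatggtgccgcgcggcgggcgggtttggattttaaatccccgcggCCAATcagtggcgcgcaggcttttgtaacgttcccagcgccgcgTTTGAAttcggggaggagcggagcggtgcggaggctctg
CCNB2, chr15:59104996-59105155, plus strand: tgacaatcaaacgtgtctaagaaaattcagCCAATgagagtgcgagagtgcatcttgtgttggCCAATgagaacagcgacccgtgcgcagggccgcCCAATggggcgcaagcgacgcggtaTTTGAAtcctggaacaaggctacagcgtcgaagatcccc
CDC20, chr1:43358831-43358990, plus strand: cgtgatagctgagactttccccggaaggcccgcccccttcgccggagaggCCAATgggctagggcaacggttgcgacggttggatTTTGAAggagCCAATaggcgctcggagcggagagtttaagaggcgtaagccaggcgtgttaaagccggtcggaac
ESPL1, chr12:53268149-53268308, plus strand: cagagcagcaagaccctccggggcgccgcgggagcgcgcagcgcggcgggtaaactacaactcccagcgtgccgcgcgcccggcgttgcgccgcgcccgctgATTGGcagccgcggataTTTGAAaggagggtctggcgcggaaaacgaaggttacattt
CDCA3, chr12:6851277-6851436, minus strand: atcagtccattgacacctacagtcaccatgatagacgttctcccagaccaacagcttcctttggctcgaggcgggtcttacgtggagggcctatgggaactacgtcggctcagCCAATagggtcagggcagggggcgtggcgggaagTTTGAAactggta
ASPM, chr1:197146660-197146819, minus strand: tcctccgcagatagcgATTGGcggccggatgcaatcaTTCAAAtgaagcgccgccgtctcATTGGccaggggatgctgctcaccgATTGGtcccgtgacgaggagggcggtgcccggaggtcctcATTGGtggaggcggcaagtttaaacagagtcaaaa
CENPU, chr4:184734087-184734246, minus strand: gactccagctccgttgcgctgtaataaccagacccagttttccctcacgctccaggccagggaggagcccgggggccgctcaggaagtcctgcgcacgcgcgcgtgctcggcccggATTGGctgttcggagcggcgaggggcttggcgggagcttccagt
In PLK1 the CHR-type match begins 29 bases before the start and the CCAAT box 73 bases before it. CCNB2 has its CHR-type match at the same distance, with 3 CCAAT boxes upstream of it, which begin 120, 87 and 54 bases before the start. In ESPL1 the matches begin 31 and 48 bases before the start, and in CDCA3 the CHR-type match spans the start itself. The window of CENPU printed here holds a CCAAT box but no TTTGAA, which says only that these letters are not in it.

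Of the 60 genes, 50 had at least 1 window in the RefSeq table, and 10 of them had more than 1, for 65 windows in all. The CHR-type motif stood in 32 of the 50 genes, and in 35 of the 65 windows (53.8%) against 15.2% of all 35116 windows in the table. Within 50 bases of the start it stood in 29 of the 65 windows (44.6%) against 4.75% of all windows. CCAAT boxes stood in 44 of the 65 windows (67.7%) against 34.6%, and both motifs in 26 of the 65 against 5.90%. An E2F-type motif (TTTCCCGC, TTTGGCGC, TTTGCCGC or TTTCGCGC) stood in 6 windows (9.23%) against 3.31%. All windows include genes that were not tested here. Counted by gene against the 10998 tested genes with a window, the CHR-type motif stood in 64% against 13.55%. By the same count CCAAT boxes stood in 76% against 42.4%, and the E2F-type motif in 10% against 6.47%. Genes with and without the CHR-type motif had similar median log2 fold changes in the comparisons below: 0.52 for 32 genes and 0.56 for 18 genes in Carbo vs control, and -0.37 for both in Carbo+COM33 vs Carbo. Only TTTGAA was searched for as the CHR-type motif, so genes counted without it, CCNB1 and CCNA2 among them, may hold other forms. A match is a description of the letters and not evidence of a bound site.

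**Figure D1:**
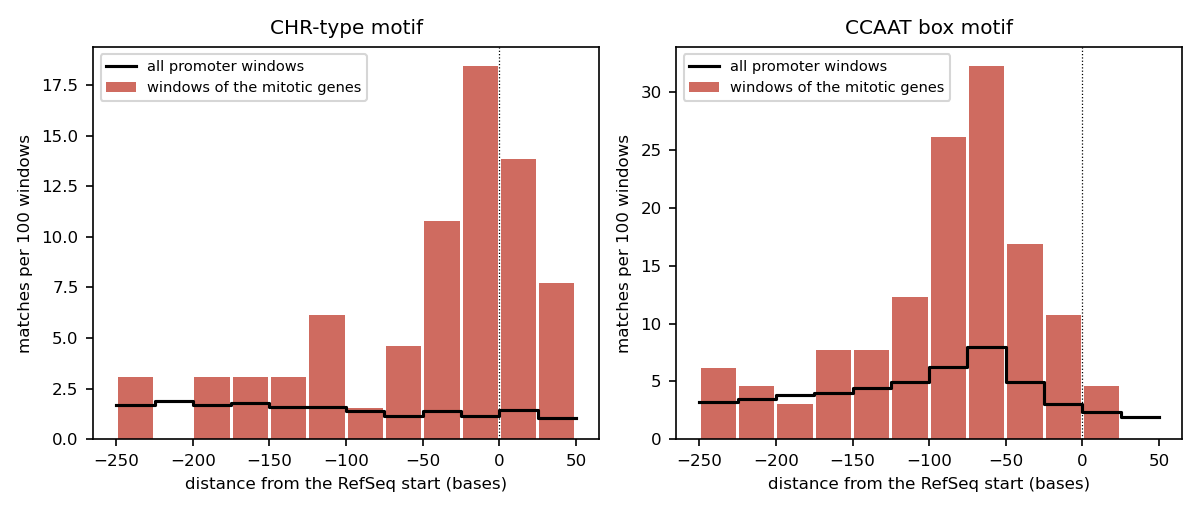
Matches per 100 promoter windows (vertical axis) against distance from the RefSeq start in bases, in steps of 25, for the CHR-type motif (left) and the CCAAT box (right). Bars are the 65 windows of the mitotic genes and the black line all 35116 windows. In the mitotic genes the CHR-type matches gather around the start and the CCAAT boxes just upstream of it.

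The 9 libraries were of like depth, with total counts from 13851760 to 15533668. Levels are given in CPM (counts scaled to the TMM-adjusted library size) and log2 fold changes with their standard error (SE). The quasi-likelihood test of edgeR gave fold changes and p-values, adjusted by Benjamini-Hochberg over 16450 tested genes, and a gene is called at an adjusted p under 0.05. All 60 mitotic genes passed the filter on low counts. SKOV3 and epithelial markers fitted the label in the main: ERBB2, which SKOV3 cells are known to overexpress, lay between 141 and 245 FPKM (counts scaled to gene length and library total), while MUC16 and WT1 were at or under 0.562 FPKM. Each of the 15 blood, endothelial and fibroblast markers stayed at or under 0.361 FPKM in every library.

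Per length of transcript, the levels in the control libraries ran from 0.189 to 170.5 FPKM, with a median of 9.99. CDC25B, a phosphatase that activates CDK1, was highest at 170.5 ± 17.4 FPKM (SD, n = 3), followed by CDC20, the activator of the anaphase-promoting complex, at 86.0 ± 5.96 FPKM and UBE2C, its ubiquitin-conjugating enzyme, at 65.7 ± 7.87 FPKM. These 3 levels did not overlap. Below them TOP2A (36.8 ± 2.42 FPKM), MELK (36.8 ± 5.47 FPKM) and CCNB1 (34.6 ± 3.86 FPKM) overlapped, as did 50 of the 59 pairs of neighbours in the order. The lowest were SGO1 (1.45 ± 0.403 FPKM), NUSAP1 (0.675 ± 0.128 FPKM) and PRC1 (0.189 ± 0.0810 FPKM). NUSAP1 and PRC1 had 281 and 126 counts in all 9 libraries together, and 62.2% and 57.6% of their exonic bases are shared with another gene on the same strand (AC087721.2 and AC068831.7), so both levels are uncertain. The authors' strand setting is not given in the sources used here, and NCAPG, SMC4, SGO1 and CENPU share 33.1%, 25.6%, 17.7% and 11.7% of their exonic bases with a gene on the other strand.

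Taken as one sum, the 60 genes held 0.390%, 0.403% and 0.443% of the counts in control 1 to 3, 0.464%, 0.563% and 0.660% in Carbo 1 to 3, and 0.464%, 0.447% and 0.421% in Carbo+COM33 1 to 3. Every Carbo library lay above every control library, and Carbo+COM33 1 and 2 lay above all 3 controls while Carbo+COM33 3 did not. Carbo libraries differed most among themselves: relative to the control mean, the median gene stood 0.25, 0.50 and 0.79 higher on the log2 scale in Carbo 1, 2 and 3, against 0.25, 0.18 and 0.07 in Carbo+COM33 1, 2 and 3. Carbo 3 was the highest of its group for 56 of the 60 genes and Carbo 1 the lowest for 52, while over all tested genes these libraries were highest and lowest for 37.1% and 39.8%. In the control group, control 3 was highest for 41 genes. In bulk RNA, more cells in G2 or mitosis and more of these transcripts per cell cannot be told apart.

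**Figure D2:**
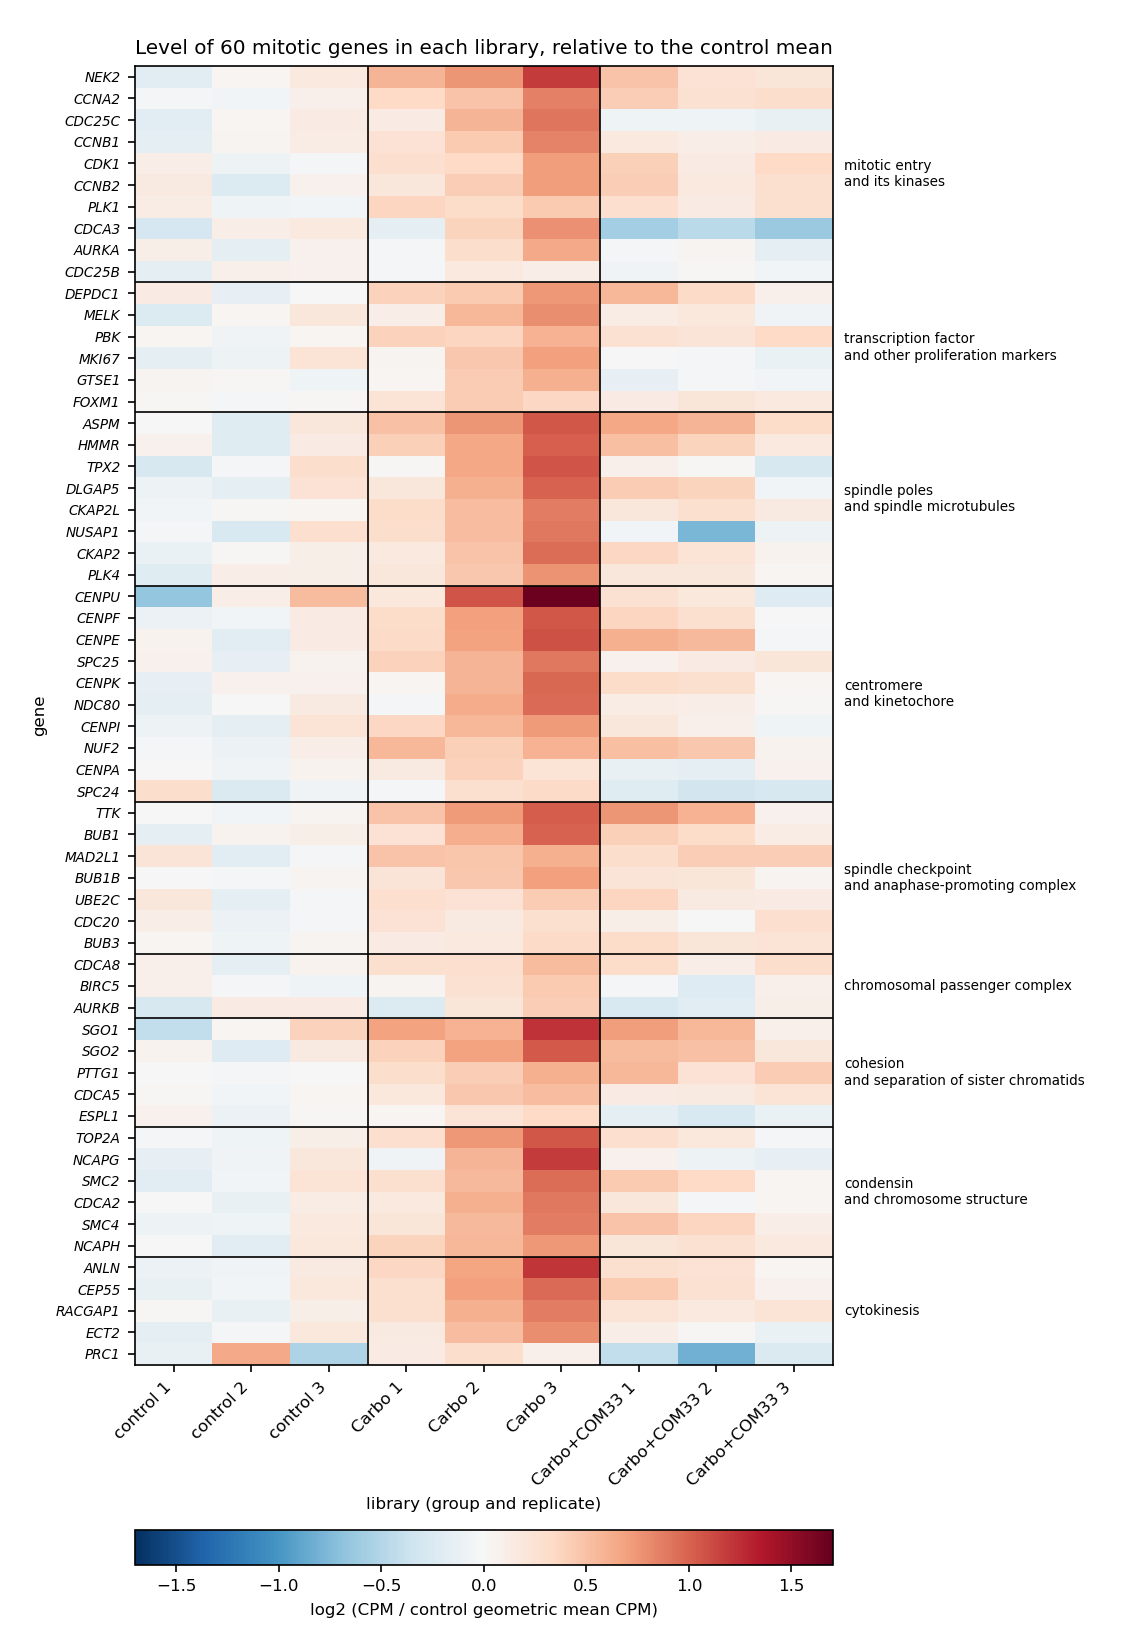
Log2 level of each of the 60 genes (rows, in order of role) in each of the 9 libraries (columns), relative to the mean log2 CPM of the 3 control libraries; red is higher and blue lower. Carbo 3 is the deepest red column in most rows, and CDCA3 is blue in all 3 Carbo+COM33 libraries.

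Carbo vs control shows how the mitotic genes differed with carboplatin. All 60 had a positive log2 fold change, from 0.08 to 1.01 with a median of 0.54, against a median of 0.00 over all 16450 genes. In the unpaired fit to all 9 libraries none of the 60 was called, with 0% of all genes called (lowest adjusted p 0.220), although 53 had an unadjusted p under 0.05, against 8.16% of all genes that were higher at that level. For 41 of the 60 the Carbo libraries did not overlap the control libraries from above, against 10.8% of all genes. The labels state no pairing. Same-numbered control and Carbo libraries deviated together in these same counts, so the 3 pairs were also compared pair by pair. Carbo 2 with control 3 and Carbo 3 with control 2 also correlated, at 0.402 and 0.254. The other unlike-numbered pairs lay between -0.779 and -0.446. With 2 residual degrees of freedom, the small p-values of the paired fit rest on this pairing. In this paired fit 53 of the 60 rose and none fell, with a median of 0.53, against 11.2% of all genes called higher and 11.5% called lower. Here and below, a gene that rose or fell is one called higher or lower. The median log2 ratio over the 60 genes was 0.28, 0.54 and 0.69 in pairs 1, 2 and 3, with 55, 59 and 60 genes higher in Carbo. The 7 genes not called in the paired fit were CDC25B, AURKB, NUSAP1, SPC24, CENPA, PRC1 and ESPL1.

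The unpaired count depends on the settings: DESeq2 called 28 of the 60 higher (0.686% of the genes it tested), edgeR without the filter on low counts called 43 (1.18%), and edgeR without Carbo 1 called 48 (3.24%). Without Carbo 3 the median fell from 0.54 to 0.35 and none was called.

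GC content moved with this comparison. In the paired fit, other genes with under 40% GC in their longest transcript had a median log2 fold change of 0.16, those with 40 to 45% had 0.10, those with 45 to 50% had 0.02, those with 50 to 60% had -0.10 and those with more had -0.24. The mitotic genes lay above the other genes in each range that held any, with medians of 0.57 (18 genes), 0.57 (21 genes), 0.42 (8 genes) and 0.32 (13 genes). Their median GC content was 41.8%, against 48.3% over all tested genes. Across the 60 genes, which share the same libraries, the log2 fold change of the paired fit correlated with GC content (Pearson's r = -0.71, Spearman's rho = -0.66). Once trends with GC and gene length were taken out of each library in the paired fit, the correlation was -0.18 (rho = -0.11), the median was 0.43 and 55 of the 60 rose, against 5.72% of all genes. After that correction CDC25B, AURKB and ESPL1 were called, BUB3 was not.

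**Figure D3:**
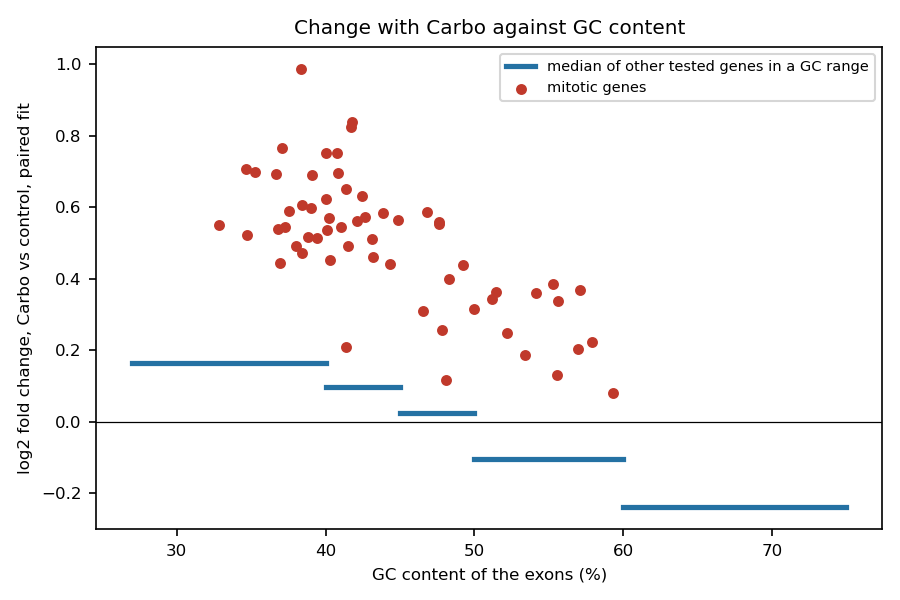
Log2 fold change of Carbo vs control in the paired fit (vertical axis) against GC content in percent (horizontal axis). GC content is that of the exons of the longest transcript of each gene. Red points are the 60 mitotic genes and blue lines the medians of all other tested genes in 5 GC ranges; each of the 60 points lies above the line of its range.

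Among the regulators of mitotic entry, 9 of 10 rose in the paired fit, against 11.2% of all genes. Counts by role rest on few genes, and differences between roles were not tested. CDK1, the kinase that drives mitosis, had 59.7, 52.2 and 54.4 CPM in control 1 to 3, 67.5, 70.1 and 90.2 CPM in Carbo 1 to 3 and 73.5, 60.9 and 69.8 CPM in Carbo+COM33 1 to 3. Its cyclin partner CCNB1 had 77.9, 90.2 and 96.2 CPM in control 1 to 3, 104, 119.7 and 157 CPM in Carbo 1 to 3 and 98.2, 94.7 and 96.6 CPM in Carbo+COM33 1 to 3. For both genes the Carbo libraries lay above the controls, and for CDK1 the Carbo+COM33 libraries did too. The log2 fold changes were 0.44 ± 0.08 (SE) for CDK1 and 0.51 ± 0.06 for CCNB1 in the paired fit of edgeR's quasi-likelihood test (adjusted p = 0.000754 and 2.56e-05). PLK1, a kinase needed for spindle assembly and mitotic exit, had 62.3, 54.5 and 55.3 CPM in control 1 to 3, 73.5, 71 and 78.1 CPM in Carbo 1 to 3 and 69.7, 63.2 and 69.3 CPM in Carbo+COM33 1 to 3. AURKA, which matures the centrosomes, had 44, 36.7 and 43.1 CPM in control 1 to 3, 40.4, 50.7 and 64.1 CPM in Carbo 1 to 3 and 40.4, 42.5 and 36.5 CPM in Carbo+COM33 1 to 3. PLK1 was higher in every Carbo library than in any control, whereas Carbo 1 fell among the controls for AURKA. NEK2, a kinase that separates the centrosomes, had 10.5, 12.3 and 13.4 CPM in control 1 to 3, 17.9, 20.1 and 27.3 CPM in Carbo 1 to 3 and 16.9, 14.2 and 13.9 CPM in Carbo+COM33 1 to 3. Its paired log2 fold change of 0.84 ± 0.10 was the largest of the role (adjusted p = 4.1e-05). CDC25B had 652, 775 and 770.3 CPM in control 1 to 3, 712, 819.5 and 793 CPM in Carbo 1 to 3 and 703, 739 and 704 CPM in Carbo+COM33 1 to 3, and its unpaired difference of 0.08 ± 0.09 was the smallest of the 60 (adjusted p = 0.657). The cyclins CCNA2 and CCNB2, the phosphatase CDC25C and the mitotic entry factor CDCA3 made up the rest, with paired log2 fold changes between 0.34 and 0.56.

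All 7 genes of the spindle checkpoint and the anaphase-promoting complex rose in the paired fit, against 11.2% of all genes. For all 7 the Carbo libraries lay above the controls, against 10.8% of all genes. BUB1, a checkpoint kinase at the kinetochore, had 25.2, 29.3 and 30.2 CPM in control 1 to 3, 33.5, 43.4 and 56.4 CPM in Carbo 1 to 3 and 37.4, 35.1 and 30.6 CPM in Carbo+COM33 1 to 3. TTK, the kinase that starts checkpoint signalling, had 36.9, 36 and 38.3 CPM in control 1 to 3, 52, 61.5 and 75.5 CPM in Carbo 1 to 3 and 62.6, 55.9 and 38.9 CPM in Carbo+COM33 1 to 3. BUB3, the adaptor that brings BUB1 to the kinetochore, had 183, 171 and 184 CPM in control 1 to 3, 197, 201 and 225 CPM in Carbo 1 to 3 and 223, 206 and 209.6 CPM in Carbo+COM33 1 to 3. Carbo+COM33 3 stood apart for TTK, close to the controls, while all 3 Carbo+COM33 libraries stayed high for BUB3. Paired log2 fold changes with Carbo were 0.63 ± 0.09 for BUB1, 0.75 ± 0.08 for TTK and 0.21 ± 0.05 for BUB3 (adjusted p = 9.6e-05, 9.07e-06 and 0.00511). CDC20 had 189, 163 and 172 CPM in control 1 to 3, 207, 195 and 210.3 CPM in Carbo 1 to 3 and 187, 174 and 213 CPM in Carbo+COM33 1 to 3. UBE2C had 95.9, 74.8 and 82.1 CPM in control 1 to 3, 102, 99 and 113 CPM in Carbo 1 to 3 and 108, 93.2 and 92.4 CPM in Carbo+COM33 1 to 3. The paired log2 fold changes of these abundant genes were 0.22 ± 0.05 and 0.32 ± 0.06 (adjusted p = 0.00289 and 0.00207). MAD2L1 and BUB1B, subunits of the mitotic checkpoint complex, had paired log2 fold changes of 0.51 and 0.46.

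At the centromere and kinetochore 8 of 10 genes rose in the paired fit, against 11.2% of all genes. CENPU, a subunit of the inner kinetochore, had 8.8, 15 and 20.1 CPM in control 1 to 3, 15.7, 29 and 43.8 CPM in Carbo 1 to 3 and 16.5, 15.7 and 11.9 CPM in Carbo+COM33 1 to 3. Its pairs differed alike although its libraries overlapped, and it had the largest log2 fold change of the 60: 1.01 ± 0.33 in the unpaired fit (adjusted p = 0.229) and 0.99 ± 0.09 in the paired one (adjusted p = 3.59e-06). CENPE, a kinesin that moves chromosomes to the spindle equator, had 51.5, 43 and 54.3 CPM in control 1 to 3, 61.7, 79.1 and 104 CPM in Carbo 1 to 3 and 75.2, 72.6 and 48.7 CPM in Carbo+COM33 1 to 3. NDC80, the main microtubule anchor of the kinetochore, had 32.4, 35.9 and 39.9 CPM in control 1 to 3, 35.3, 55.6 and 69.8 CPM in Carbo 1 to 3 and 39.3, 39 and 36.4 CPM in Carbo+COM33 1 to 3. Carbo 1 lay among the controls for NDC80 and above them for CENPE, with paired log2 fold changes of 0.54 ± 0.10 and 0.70 ± 0.09 (adjusted p = 0.000745 and 7.72e-05). The other kinetochore genes that rose were CENPF, CENPI, CENPK, NUF2 and SPC25, from 0.52 to 0.70, while SPC24 and the centromeric histone CENPA were not called.

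In the chromosomal passenger complex, which corrects faulty attachments, 2 of 3 genes rose in the paired fit, against 11.2% of all genes. BIRC5, also called survivin, had 82.1, 76.3 and 73.1 CPM in control 1 to 3, 79.6, 91.9 and 105 CPM in Carbo 1 to 3 and 75.8, 66.5 and 81.8 CPM in Carbo+COM33 1 to 3. AURKB, the kinase of the complex, had 30.6, 40.6 and 40.8 CPM in control 1 to 3, 31.4, 42.8 and 49.2 CPM in Carbo 1 to 3 and 30.9, 32.3 and 39.5 CPM in Carbo+COM33 1 to 3. Both overlapped between Carbo and control, with paired log2 fold changes of 0.25 ± 0.08 (adjusted p = 0.0261) and 0.13 ± 0.07 (adjusted p = 0.222). CDCA8, the third member, rose by 0.36 ± 0.07 (adjusted p = 0.00143).

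Of the 8 genes of the spindle poles and microtubules 7 rose in the paired fit, against 11.2% of all genes. ASPM, which focuses the spindle poles, had 58.2, 50.4 and 66.4 CPM in control 1 to 3, 81.7, 97.2 and 120.4 CPM in Carbo 1 to 3 and 91.1, 86.3 and 72 CPM in Carbo+COM33 1 to 3. Its Carbo libraries and its Carbo+COM33 libraries all lay above the controls, and its paired log2 fold change with Carbo was 0.77 ± 0.07 (adjusted p = 3.4e-06). NUSAP1, which bundles spindle microtubules, had 1.87, 1.6 and 2.33 CPM in control 1 to 3, 2.35, 2.74 and 3.56 CPM in Carbo 1 to 3 and 1.84, 1.12 and 1.8 CPM in Carbo+COM33 1 to 3, values that rest on few counts. TPX2, HMMR, DLGAP5, CKAP2, CKAP2L and PLK4, which organise the spindle or duplicate the centrioles, had paired log2 fold changes from 0.47 to 0.69.

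Among the genes of sister chromatid cohesion and separation 4 of 5 rose in the paired fit, against 11.2% of all genes. PTTG1, or securin, the inhibitor of separase, had 20.2, 19.9 and 20.3 CPM in control 1 to 3, 24.7, 26.9 and 30.8 CPM in Carbo 1 to 3 and 29.8, 24 and 27.1 CPM in Carbo+COM33 1 to 3. SGO1, which protects cohesin at the centromere, had 4.02, 5.53 and 7.05 CPM in control 1 to 3, 8.68, 8.15 and 12.6 CPM in Carbo 1 to 3 and 8.84, 7.96 and 5.75 CPM in Carbo+COM33 1 to 3. ESPL1, separase itself, had 55.7, 49.2 and 53.6 CPM in control 1 to 3, 54.2, 62.2 and 66.6 CPM in Carbo 1 to 3 and 47.1, 44 and 48.8 CPM in Carbo+COM33 1 to 3. PTTG1 was nearly level across the controls and above them in all 6 treated libraries, whereas ESPL1 overlapped between control and Carbo and was lowest in the Carbo+COM33 libraries. The paired log2 fold changes with Carbo were 0.44 ± 0.09, 0.82 ± 0.15 and 0.20 ± 0.07 (adjusted p = 0.00195, 0.00107 and 0.0529). SGO2, the second shugoshin, and CDCA5, or sororin, which stabilises cohesin on DNA, rose by 0.71 and 0.38. PTTG1 has near-identical copies elsewhere in the genome, which could share its reads.

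All 6 condensin and chromosome structure genes rose in the paired fit, between 0.54 and 0.69, against 11.2% of all genes called higher. TOP2A, the topoisomerase that untangles sister chromatids, had 230.4, 224 and 253 CPM in control 1 to 3, 286, 391 and 489 CPM in Carbo 1 to 3 and 286, 267 and 232 CPM in Carbo+COM33 1 to 3. SMC4, a core condensin subunit, had 178, 179 and 211 CPM in control 1 to 3, 218, 276 and 345 CPM in Carbo 1 to 3 and 264, 244 and 204 CPM in Carbo+COM33 1 to 3. Every Carbo library was above every control for both genes, and Carbo+COM33 3 was back within the control range for both. The paired log2 fold changes were 0.69 ± 0.08 for TOP2A and 0.54 ± 0.06 for SMC4 (adjusted p = 1.82e-05 and 1.66e-05). The condensin subunits SMC2, NCAPG and NCAPH rose by 0.59, 0.60 and 0.56, and CDCA2, which steers a phosphatase to chromatin, by 0.56.

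In cytokinesis 4 of 5 genes rose in the paired fit, against 11.2% of all genes. ANLN, which links the contractile ring to the membrane, had 80.8, 82.7 and 95.7 CPM in control 1 to 3, 109.9, 138 and 199 CPM in Carbo 1 to 3 and 104, 102 and 88.4 CPM in Carbo+COM33 1 to 3. CEP55, which recruits the machinery that cuts the last bridge between daughter cells, had 40.6, 42.9 and 50.5 CPM in control 1 to 3, 53.9, 71.9 and 87 CPM in Carbo 1 to 3 and 60.6, 53.2 and 46.8 CPM in Carbo+COM33 1 to 3. PRC1, which bundles microtubules between the separating chromosomes, had 0.901, 1.53 and 0.684 CPM in control 1 to 3, 1.08, 1.21 and 1.05 CPM in Carbo 1 to 3 and 0.736, 0.559 and 0.831 CPM in Carbo+COM33 1 to 3, again on few counts. ANLN and CEP55 differed by 0.75 ± 0.08 and 0.65 ± 0.07 in the paired fit (adjusted p = 7.99e-06 and 1.44e-05), and PRC1 by 0.12 ± 0.38 (adjusted p = 0.867). ECT2 and RACGAP1, which position the cleavage furrow, rose by 0.49 and 0.58.

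All 6 of the remaining genes rose in the paired fit, against 11.2% of all genes. MKI67, the Ki-67 antigen used to count cycling cells, had 171, 179 and 223 CPM in control 1 to 3, 195, 261 and 307 CPM in Carbo 1 to 3 and 190.1, 186 and 175 CPM in Carbo+COM33 1 to 3. FOXM1, a transcription factor of G2 and mitosis genes, had 43.5, 41.8 and 43.2 CPM in control 1 to 3, 50.3, 57.9 and 54.5 CPM in Carbo 1 to 3 and 47.1, 49.5 and 48.3 CPM in Carbo+COM33 1 to 3. Carbo 1 lay among the controls for MKI67, while FOXM1 was higher in each Carbo library than in each control. Their paired log2 fold changes were 0.40 ± 0.06 and 0.34 ± 0.07 (adjusted p = 0.000139 and 0.00215). DEPDC1, GTSE1, MELK and PBK, all proliferation-linked genes, ranged from 0.36 to 0.52.

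**Figure D4:**
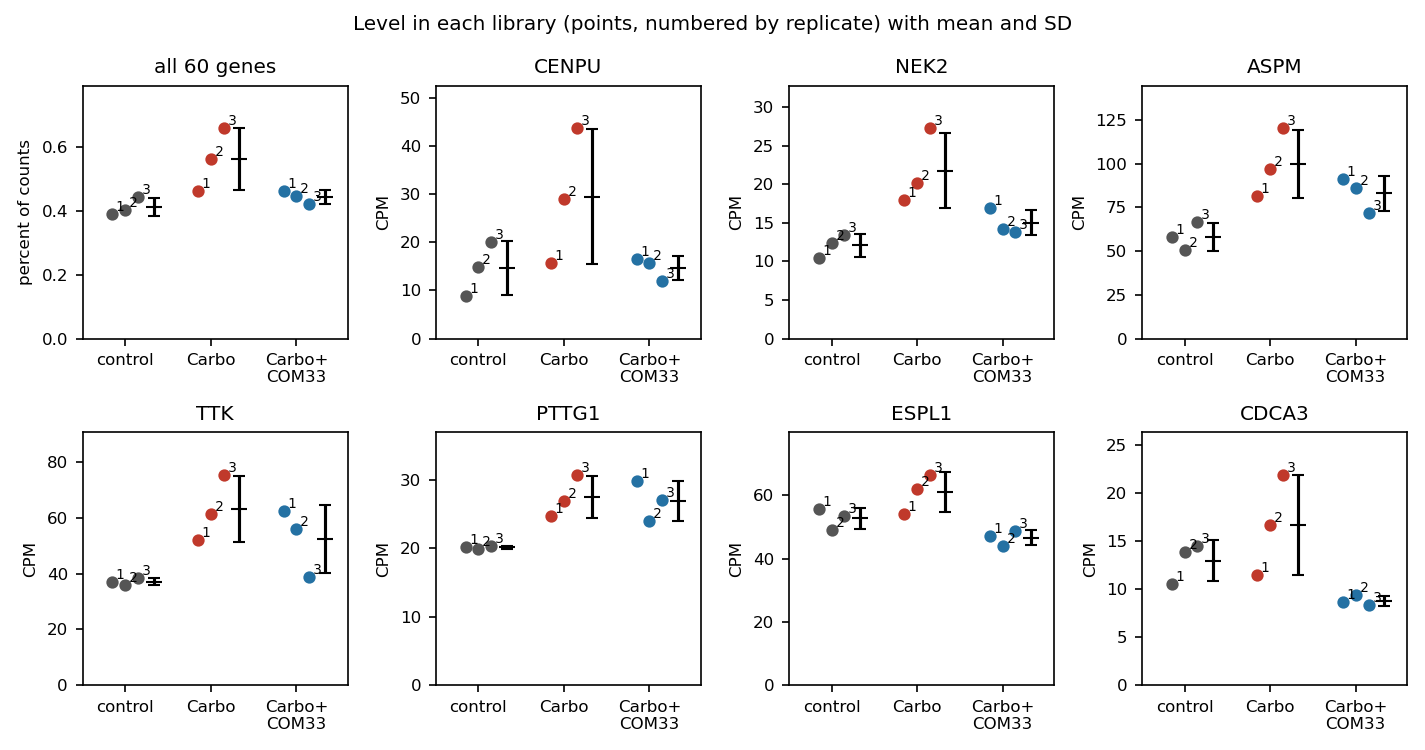
Percent of counts held by the 60 genes and CPM of 7 of them (vertical axes, from 0) in each library, with points numbered by replicate and the mean and SD of each group (n = 3) beside them. For CENPU, NEK2 and ASPM the Carbo group has the highest mean and the largest SD, and CDCA3 and ESPL1 are lowest in the Carbo+COM33 libraries.

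Carbo+COM33 vs Carbo shows how the same genes differed when COM33 was added; it shares the Carbo libraries with the comparison above, so the 2 sets of fold changes are not independent. Of the 60 genes 59 had a negative log2 fold change, with a median of -0.36 and a range from -1.003 to 0.04, against a median of -0.01 over all genes. Called lower were 2 of the 60, against 2.53% of all genes, and none was called higher by either edgeR or DESeq2, against 2.43% of all genes in edgeR. The count called lower is near the share of all genes, so it shows nothing about the 60 genes as a set. The 2 genes are described below only for their values. At an unadjusted p under 0.05, 34 of the 60 were lower, against 11.6% of all genes. For 22 of the 60 the Carbo+COM33 libraries lay wholly below the Carbo libraries, against 11.9% of all genes. These included CCNB1, PLK1, NEK2, ANLN, MKI67 and FOXM1.

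CDCA3 (log2 fold change -0.93 ± 0.21, adjusted p = 0.026) and ESPL1 (-0.39 ± 0.10, adjusted p = 0.0387) were the 2 genes that fell. CDCA3, at chr12:6844793-6852066 (GRCh38), is an adaptor that helps destroy the inhibitory kinase WEE1 and had 10.5, 13.9 and 14.4 CPM in control 1 to 3, 11.4, 16.7 and 21.9 CPM in Carbo 1 to 3 and 8.62, 9.36 and 8.31 CPM in Carbo+COM33 1 to 3. Its 3 Carbo+COM33 libraries were below the other 6 libraries, and so were those of ESPL1, at chr12:53268299-53293643. CDCA3 shares 9.71% of its exonic bases with a gene on the other strand and ESPL1 none. CDCA3 was called under 11 of 17 alternative settings and ESPL1 under 7 of 17. The call of CDCA3 was lost without Carbo 2, Carbo 3 or any one Carbo+COM33 library (adjusted p from 0.0757 to 0.105). That of ESPL1 was lost in these fits and also without control 2 or control 3 (adjusted p from 0.0595 to 0.168). The edgeR fit with the replicate block called neither (adjusted p = 0.0518 and 0.119). ESPL1 was also not called with the GC and length correction added to the block (adjusted p = 0.0688) or with the 2 groups alone. With Carbo 3 left out the adjusted p-values were 0.105 for CDCA3 and 0.159 for ESPL1.

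CENPU had the most negative value, -1.003 ± 0.33, but Carbo 1 at 15.7 CPM lay within the Carbo+COM33 range and it was not called (adjusted p = 0.0956). NUSAP1 followed with -0.86 ± 0.28 (adjusted p = 0.0967). At the other end BUB3 (0.04 ± 0.08), PTTG1 (-0.03 ± 0.11) and CDC20 (-0.09 ± 0.09) differed least, with adjusted p-values of 0.832, 0.922 and 0.593. By role the medians ran from -0.14 for the checkpoint and anaphase-promoting complex genes and -0.27 for the passenger complex to -0.47 for the kinetochore and -0.51 for cytokinesis. Differences between roles were not tested. The count of genes lower depends on the settings: DESeq2 called 12 (4.21% of its genes), edgeR without the filter called 25 (2.92%), and edgeR without Carbo 1 called 38 (8.57%). Without Carbo 3 the median was -0.19 and none was called, and none was called without Carbo 2 either.

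**Figure D5:**
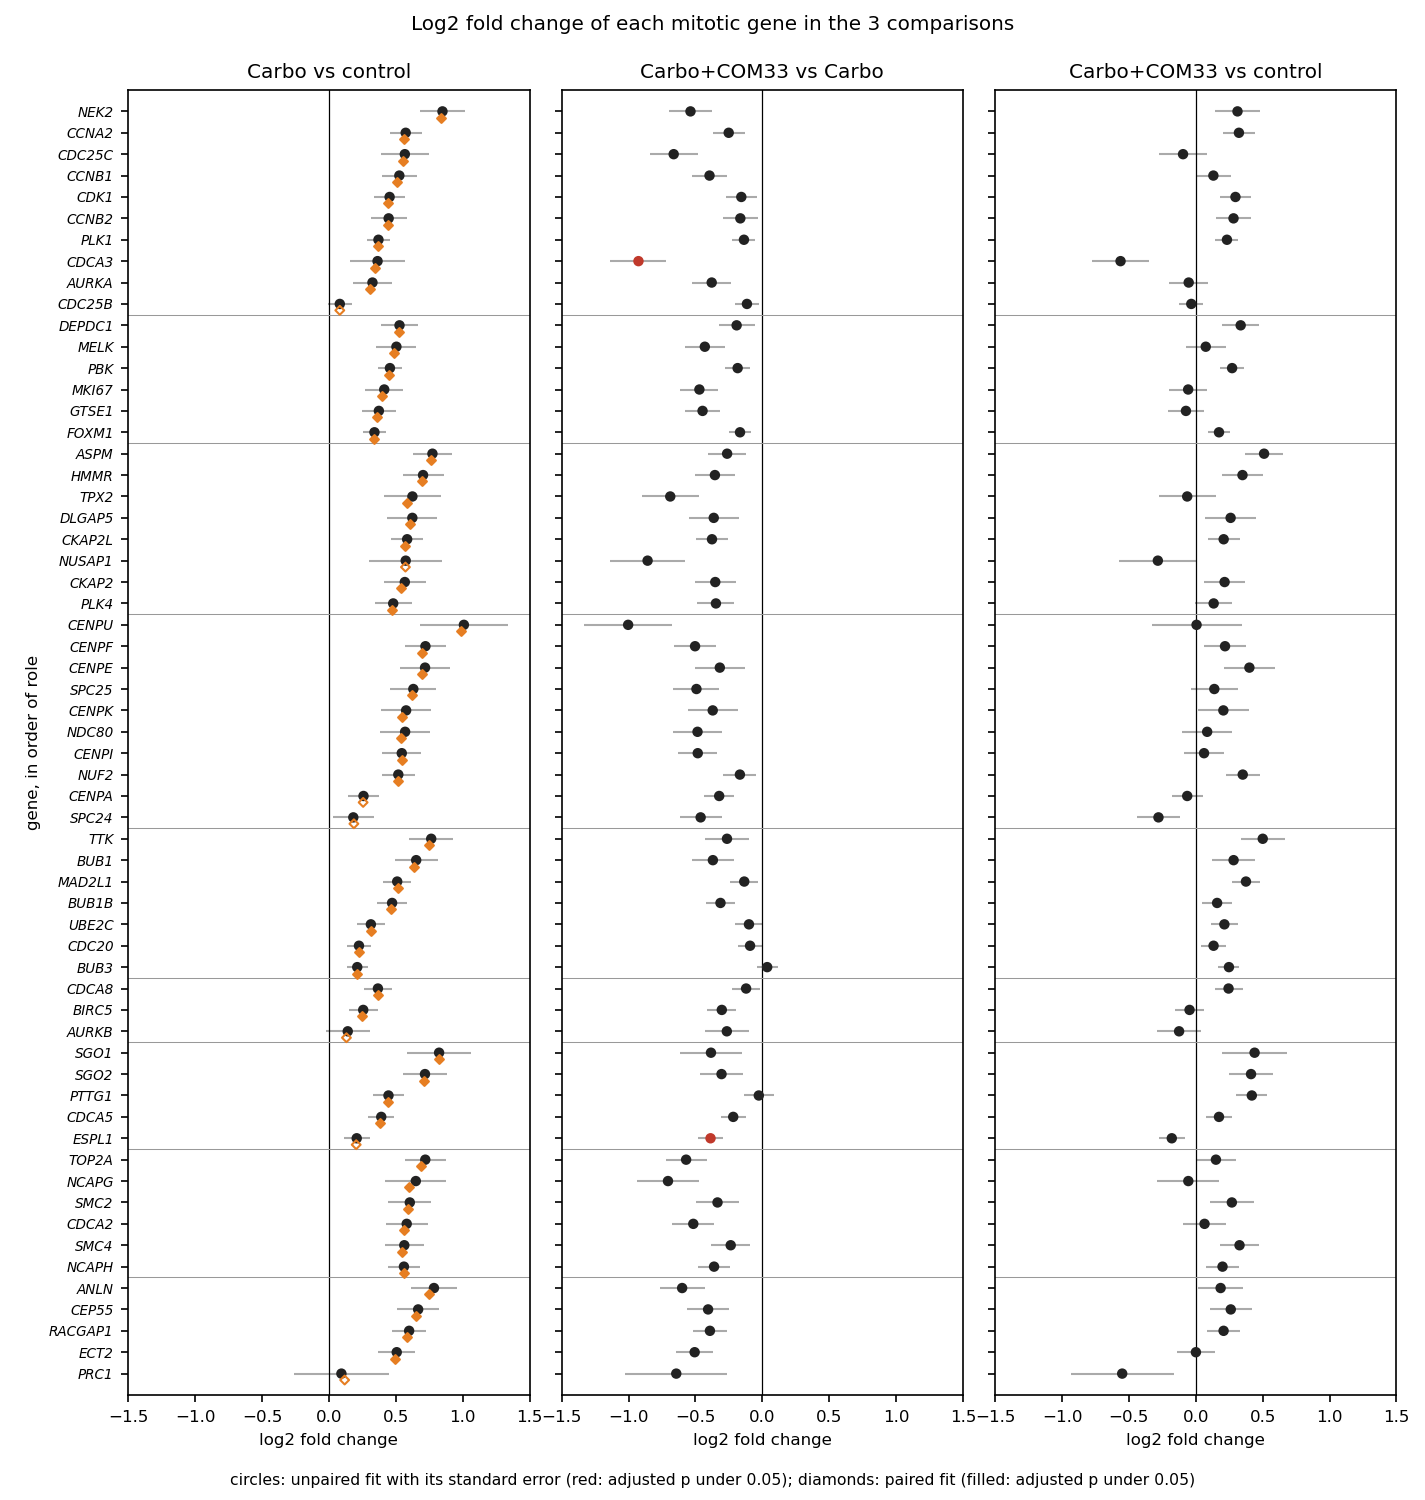
Log2 fold change of each of the 60 genes (rows, in order of role) in the 3 comparisons (panels), with the SE of the unpaired fit as a bar. Red circles are the 2 genes called in the unpaired fit, CDCA3 and ESPL1, and diamonds in the left panel the paired fit, filled for the 53 genes called; the circles lie right of 0 on the left and, for 59 of the 60, left of 0 in the middle.

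Carbo+COM33 vs control shows where the doubly treated cells stood against untreated ones; it shares libraries with both comparisons above. The median log2 fold change was 0.19, with a range from -0.56 to 0.51 and 45 of the 60 positive, against a median of -0.01 over all genes. None of the 60 was called, against 3.2% of all genes called higher and 3.09% called lower. At an unadjusted p under 0.05, 15 of the 60 were higher and 1 was lower, against 11.9% and 12.1% of all genes. For 19 genes the Carbo+COM33 libraries lay wholly above the controls, against 14.3% of all genes, and for 2 (CDCA3 and ESPL1) wholly below, against 14.4%. By the order of the 3 group means, Carbo+COM33 lay between control and Carbo for 44 genes, below both for 15 and above both for BUB3. GC content moved with this comparison too. In the replicate block fit, other genes had medians of 0.13, 0.07, -0.003, -0.08 and -0.21 from the lowest GC range to the highest. The mitotic genes had 0.28, 0.21, -0.05 and -0.03, with none in the highest range. At 45 to 50% GC they lay below the other genes. With the GC and length correction added to that fit, their median was 0.13 with 44 positive, against 0.02 over all genes.

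The highest values were those of ASPM (0.51 ± 0.14, adjusted p = 0.0536), TTK (0.50 ± 0.16, adjusted p = 0.0861) and SGO1 (0.44 ± 0.24, adjusted p = 0.296). PTTG1, with 0.42 ± 0.12, came nearest to a call at an adjusted p of 0.0504. The lowest were CDCA3 (-0.56 ± 0.21, adjusted p = 0.127), PRC1 (-0.55 ± 0.38, adjusted p = 0.412) and NUSAP1 (-0.28 ± 0.29, adjusted p = 0.597). CDK1 (0.30 ± 0.12) and PLK1 (0.23 ± 0.09) stayed above all controls without a call, and AURKA (-0.05 ± 0.15), BIRC5 (-0.05 ± 0.11) and MKI67 (-0.06 ± 0.14) lay close to them. DESeq2 called 5 of the 60 higher, against 5.57% of the genes it tested. The settings tried called from 0 to 8 of the 60 higher and at most 1 lower; the 8 came from the replicate block with the GC and length correction, which called 6.21% of all genes higher.

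Other genes of the same machinery were followed through 10 lists. The paired Carbo vs control fit called 11.2% of all genes higher and 11.5% lower. In that fit 10 of 12 mitotic kinesins rose (median 0.48, against -0.0016 over all genes), with KIF18A at 0.84 and KIF23 at 0.67. Of 28 further kinetochore and centromere genes 16 rose and 1 fell (median 0.35), with HJURP, the chaperone that loads CENPA, at 0.63. Of 12 cohesin genes 9 rose (median 0.24), with ESCO2 at 0.57 and RAD21 at 0.36, and of 4 other condensin subunits 3 rose (median 0.31), with NCAPG2 at 0.37 and NCAPD2 at 0.32. By contrast 3 of 19 subunits and regulators of the anaphase-promoting complex rose and 1 fell (median 0.04), with FBXO5, its inhibitor, at 0.55 and CDC27 at 0.30. Of 16 other regulators of entry and exit 6 rose and 2 fell (median 0.13), with MASTL at 0.67 and BORA at 0.43. Of 12 other cytokinesis and abscission genes 5 rose and 3 fell (median 0.15), with CIT at 0.63 and VPS4A at -0.44.

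Tubulins rose in 7 of 12 (median 0.20), with TUBA4A and TUBD1 at 0.41 each, and centrosome genes in 9 of 20 (median 0.17), with CEP152 at 0.74 and CEP135 at 0.62. Of 14 MuvB, B-MYB, DREAM and NF-Y factors 7 rose (median 0.15), with MYBL1, which encodes A-MYB, at 0.70 and LIN54 at 0.47. MYBL2, which encodes B-MYB, rose by 0.28 in the paired edgeR fit (adjusted p = 0.000998). No gene of the last 3 lists fell, against 11.5% of all genes. With the GC and length correction added to the paired fit, where 5.72% of all genes were called higher, the cohesin genes that rose were 4 of 12 (median 0.10) and the MuvB, B-MYB, DREAM and NF-Y factors 4 of 14 (median 0.07), while 3 of 16 regulators of entry and exit rose (median 0.15) and 4 of 12 cytokinesis genes (median 0.09). The anaphase-promoting complex list had 5 of 19 higher (median 0.08), and the kinesins 11 of 12 (median 0.38). Of the list genes named here for Carbo vs control, BORA, CDC27 and TUBD1 were not called with that correction (adjusted p = 0.191, 0.124 and 0.204).

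With COM33 added to Carbo, 11 of the 149 list genes tested (7.38%) fell in the unpaired fit, against 2.53% of all genes, and none rose, against 2.43%. The kinesins KIF20A (-1.01 ± 0.20, adjusted p = 0.0144), KIF18B (-0.66 ± 0.11, adjusted p = 0.00644) and KIFC1 (-0.46 ± 0.11, adjusted p = 0.0371) were 3 of 12 (median -0.42). The condensin subunits NCAPG2 (-0.67 ± 0.16, adjusted p = 0.0327) and NCAPD2 (-0.52 ± 0.11, adjusted p = 0.0147) were 2 of 4 (median -0.43). A single gene fell in each of 6 other lists: HJURP (-0.77 ± 0.17), the CDK1 inhibitor kinase WEE1 (-0.41 ± 0.11), the cytokinesis kinase CIT (-0.49 ± 0.12), TUBA4A (-0.85 ± 0.20), the centrosome protein PCNT (-0.42 ± 0.09) and the pocket protein RBL2 (-0.41 ± 0.08), with adjusted p-values of 0.0251, 0.0452, 0.0378, 0.0282, 0.0209 and 0.0143. None of the cohesin genes (median -0.20 over 12) or the anaphase-promoting complex genes (median 0.02 over 19) was called.

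Against control, 6 of the 149 list genes tested (4.03%) were called higher with Carbo+COM33 and 2 (1.34%) lower in the unpaired fit, shares near or under the 3.2% and 3.09% of all genes, so the counts show nothing about the lists and the genes are named only for their values. The 2 lower were KIF18B (-0.56 ± 0.11, adjusted p = 0.0154) and ENSA, an inhibitor of the phosphatase PP2A (-0.28 ± 0.08, adjusted p = 0.0497). The 6 higher were TUBA1C (0.67 ± 0.13, adjusted p = 0.0153), KIF20B (0.63 ± 0.16, adjusted p = 0.0349), CEP135 (0.59 ± 0.16, adjusted p = 0.0432), ANAPC13 (0.40 ± 0.09, adjusted p = 0.0256), NEDD1 (0.34 ± 0.09, adjusted p = 0.0425) and the myosin MYH9 (0.33 ± 0.09, adjusted p = 0.0493).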

How the data were processed

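The authors deposited whole-number read counts per gene and FPKM values for the 9 libraries. The submitters' processing notes list GRCh38, DESeq2 1.26.0, HTSeq 0.11.2 and HISAT2; settings, the strand setting included, are not given in the sources used here. The deposited FPKM values equal the count divided by gene length and library total and were used for levels per length. Per the labels, RNA was selected with poly-T beads.

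Gene names and coordinates matched GENCODE release 29 for all 32378 genes. Genes passing filterByExpr of edgeR 4.0.16 (16450) were fitted with TMM scaling and a quasi-likelihood model with 1 coefficient per group over all 9 libraries. Each SE was taken as the size of the log2 fold change over the square root of F. After subtracting group means, control and Carbo libraries of the same number correlated at 0.824, 0.565 and 0.748 over 6607 genes with a mean log2 CPM over 5, each above 0.1, so the replicate number was also used as a block in those 6 libraries. Carbo 2 with control 3 (0.402) and Carbo 3 with control 2 (0.254) were also above 0.1, though unlike in number. For libraries of the same number the values were -0.015, 0.138 and -0.388 for Carbo+COM33 with Carbo and 0.085, 0.101 and -0.420 with control. The numbers therefore do not pair those groups. Block fits of those comparisons are given only as alternative settings and for the GC values.

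GC content was that of the longest GENCODE transcript of each gene, and length that of all its exons together. GC content and length trends were removed as gene-wise offsets from splines with 5 degrees of freedom. Alternatives were DESeq2 1.42.0, RLE size factors, 2 filters, pairs of groups alone and leaving out each library. R 4.3.3, limma 3.58.1 and Python with pandas were used. Unpaired and paired edgeR fits were also run on simulated counts. That run covered neither the GC correction nor DESeq2 and says nothing about pairing in these libraries. The 60 genes and the 10 lists were chosen with earlier results of these data known. Named with values in every library were 22 genes chosen for their roles, the 3 highest and 3 lowest fold changes of each comparison and every gene called in an unpaired fit. From the lists, at most 3 called genes per direction in the unpaired fit, or the 2 largest in the paired fit, were named. INCENP and MYBL2 were named outside this rule. 1 gene that this rule would name is not reported here. The distance of 50 bases for motifs near the start was chosen after seeing the data.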

Additional observations from a re-analysis of the deposited data

How the results depend on the processing

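In Carbo vs control the count of genes higher was 0 in the unpaired fit (0% of all genes) and 53 with the replicate block (11.2%). It was 55 with the block and the GC and length correction (5.72%), 28 with DESeq2 (0.686%) and 43 without the filter on low counts (1.18%). Leaving out 1 library gave 0 to 48 (48 without Carbo 1, 3.24%). The paired fit without pair 1, 2 or 3, added after seeing the data, gave 56, 45 and 48. Each of these fits has fewer residual degrees of freedom than the full paired fit. Counts in this paragraph without a share of all genes beside them are not compared with other genes here. They therefore show nothing about the mitotic genes as a set. Over the leave-one-out fits the median ran from 0.35 to 0.66, from -0.49 to -0.19 in Carbo+COM33 vs Carbo and from 0.16 to 0.22 in Carbo+COM33 vs control. In Carbo+COM33 vs Carbo the count lower was 2 (2.53% of all genes), and 0 with the replicate block (1.56%). It was 8 with the GC and length correction, 12 with DESeq2 (4.21%), 25 without the filter (2.92%) and 1 with the 2 groups alone. Leaving out 1 library gave 0 to 38 (38 without Carbo 1, 8.57%). In Carbo+COM33 vs control the count higher was 0 (3.2% of all genes), 1 with the replicate block (3.19%) and 8 with the block and correction (6.21%). It was 3 with the correction alone, 5 with DESeq2 (5.57%), 2 with RLE and 7 without the filter. The stricter filter gave 1, the 2 groups alone gave 4, and leaving out 1 library gave 0 to 4. The count lower there was 0 (3.09%), and 1 with the block and correction (4.12%). It was 1 without the filter, 1 with the 2 groups alone and 0 to 1 with 1 library left out. Replicate numbers did not pair the Carbo+COM33 libraries, which share only a number with the others. The cause of these differences was not tested.

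Signs turned for some values that lie near 0, none of which was called where it turned. Ranges here are over the fits that leave out 1 library each. In Carbo vs control AURKB ran from -0.00632 (without Carbo 3) to 0.30 and PRC1 from -0.13 (without control 3) to 0.48, and PRC1 was -0.075 in the paired fit without pair 3. In Carbo+COM33 vs Carbo BUB3 ran from -0.000934 (without Carbo 1) to 0.096, and PTTG1 from -0.0996 to 0.061 (without Carbo 3). In Carbo+COM33 vs control AURKA ran from -0.13 to 0.00538, CDC25B from -0.10 to 0.014, CENPU from -0.25 (without control 1) to 0.30, BIRC5 from -0.12 to 0.036 and MKI67 from -0.12 to 0.068 (without control 3). With the GC and length correction, with and without the block, CDC25B was 0.115 and 0.114, CENPU -0.049 and -0.088, and BIRC5 0.00540 and 0.00763. Levels by FPKM in place of CPM moved no median past the spread between libraries. PRC1 and NUSAP1 are limited by their counts.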
